A study of Mus musculus with 6 samples.

Results

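Cadherins are the calcium-dependent adhesion proteins that hold cells of a kind together, and 8 of them were followed here in cells sorted from injured mouse kidney: Cdh1, Cdh2, Cdh3, Cdh4, Cdh6, Cdh11, Cdh13 and Cdh16. They were chosen by name, as epithelial and mesenchymal cadherins, with earlier results of these data known. Each matched 1 row of the 31815 gene rows, and all 8 were among the 15462 genes that passed a filter on low counts and were tested. RNA was sequenced in 6 libraries: both populations, tdT+GFP+ and tdT-GFP+, were sorted from each of 3 kidneys, which the sample labels number 1 to 3 as the libraries are. All libraries share the genotype Axin2CreERT2/+:R26RtdT/+:Acta2-GFP and come from male mice of 9 to 12 weeks that had bilateral ischemia reperfusion injury (IRI), surgery in which the blood flow to both kidneys is stopped and restored. All mice received tamoxifen on days 2 and 4, and cells were sorted on day 6. Tamoxifen lets the Cre made from the Axin2 gene, a feedback target of canonical Wnt signalling, turn on the red reporter tdTomato (tdT) for good, so red cells are those that used Axin2 around the tamoxifen days. GFP was driven by Acta2, the smooth muscle actin gene of myofibroblasts, and was the marker of both sorts. Both populations thus come from injured, tamoxifen-treated kidneys and are GFP+, and the sort told them apart by the red label.

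A classical cadherin binds the same cadherin on the neighbouring cell through its outer repeats, and its tail binds beta-catenin and p120-catenin, which tie it to actin. E-cadherin (Cdh1) is the textbook cadherin of epithelium and N-cadherin (Cdh2) that of mesenchyme and nerve, although proximal tubules of the kidney also use N-cadherin. Loss of the former and gain of the latter, driven by transcription factors of the Snail, Zeb and Twist families, is the usual description of an epithelial-mesenchymal transition. Beta-catenin is shared between adhesion and canonical Wnt signalling, the pathway that the red label reads.

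The upstream sequence of Cdh6 is shown because the sort rests on a Wnt reporter and TCF/LEF factors, the DNA-binding partners of beta-catenin, have the core CTTTG. It is the window from 250 bases before the annotated start to the start itself (RefSeq, GRCm38.p6, chr15:13173676-13173925, minus strand), printed 5′ to 3′ on the strand of the gene. Capitals mark the core, as CTTTG or as its reverse complement CAAAG.
Cdh6 upstream window: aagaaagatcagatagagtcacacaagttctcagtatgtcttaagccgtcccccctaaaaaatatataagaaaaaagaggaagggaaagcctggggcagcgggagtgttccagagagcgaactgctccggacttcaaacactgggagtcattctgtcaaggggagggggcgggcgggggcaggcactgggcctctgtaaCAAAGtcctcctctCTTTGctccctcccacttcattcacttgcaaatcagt
The core occurred at 2 places, beginning 51 and 37 bases before the start. The first of them lies within the longer word AACAAAG (reverse complement CTTTGTT), which was searched on both strands as well. The core alone is common, as 48.6% of the 32851 upstream windows of the same length hold it, and 5.03% hold the longer word. These are letter matches and not measured binding sites. Of the 8 members 1 was matched in the table of upstream sequences.

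The libraries held 25697348 to 33029933 counts. Values below are CPM (normalised counts, scaled to a common library total), and a count of 3 equals 0.0915 to 0.114 CPM. The labelled cell type was checked on its markers: Acta2 stood at 943 to 1746 CPM and the collagen gene Col1a1 at 14923 to 21843 CPM, so both sorts carried the RNA of matrix-producing, actin-rich cells. Markers of other cells were present in every library, with the epithelial surface gene Epcam at 10.8 to 44.4 CPM and the endothelial gene Pecam1 at 75.6 to 363 CPM. Library 3 of tdT-GFP+ cells had the highest mean log2 CPM over tubule, endothelial and mural genes, so the difference of each cadherin is also given without it. In summed CPM, proximal tubule genes were higher in library 2 of tdT-GFP+ cells (1427 against 1230). In sorted bulk samples, fewer cells of a type and less RNA per cell cannot be told apart.

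Scaled by length, the cadherin messages of these sorts were mostly those of Cdh11, the cadherin of mesenchymal and bone-forming cells, with the tubule gene Cdh16 next. Levels of different genes were compared as TPM, the counts divided by the summed length of all annotated exons and scaled to a common total. Cdh11 had 367.5 ± 40.2 TPM and Cdh16 had 126.5 ± 67.2 TPM over all libraries (SD, n = 6). Cdh1 followed with 35.4 ± 13.7 TPM and Cdh3 with 32.7 ± 12.7 TPM, and then Cdh6 with 9.46 ± 5.28 TPM. The lowest were Cdh13 with 4.52 ± 1.82 TPM, Cdh2 with 3.98 ± 1.13 TPM and Cdh4 with 0.844 ± 0.675 TPM. Along this order Cdh11 over Cdh16, Cdh16 over Cdh1, Cdh3 over Cdh6 and Cdh2 over Cdh4 did not overlap in range across the libraries. Cdh1 and Cdh3 did not differ beyond their spread, with Cdh1 the higher in 3 of 6 libraries. Cdh13 and Cdh2 also overlapped, and so did the ranges of Cdh6 and Cdh13, although Cdh6 was above Cdh13 in all 6 libraries. With the longest transcript as the length this last order turned, at 8.20 TPM for Cdh6 and 8.73 TPM for Cdh13. N-cadherin, the textbook mesenchymal cadherin, was thus among the lowest of the 8 in length-scaled level in GFP+ cells.

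**Figure D1:**
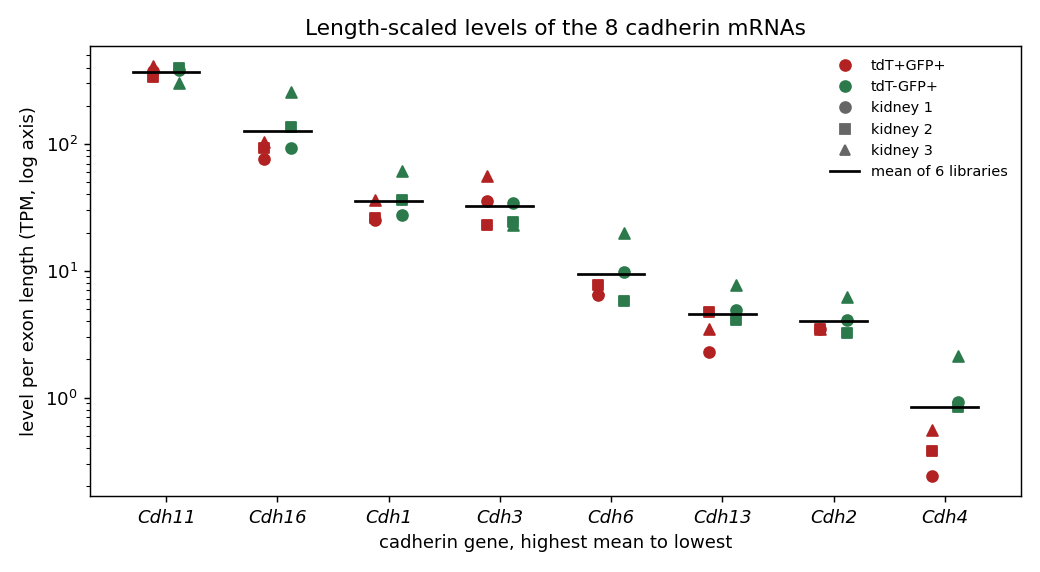
Length-scaled level (TPM, log axis) of each cadherin in each library, in order of the mean. Red points are tdT+GFP+ and green points tdT-GFP+ libraries, the shape gives the kidney and the bar is the mean of 6 libraries. Cdh11 is the highest in every library and Cdh4 the lowest.

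As a share of the summed TPM of the 8 genes, Cdh11 made up 71.5%, 68.2% and 66.0% in tdT+GFP+ libraries 1, 2 and 3. Its share was 68.7%, 65.5% and 44.4% in tdT-GFP+ libraries 1, 2 and 3. Library 3 of tdT-GFP+ cells was the low value, and the groups overlapped. In that library Cdh16 held 37.9% of the cadherin pool, against 14.6% to 22.3% in the other 5 libraries. Cdh1 held 9.07% there, against 4.83% to 5.90% elsewhere. The makeup of the pool was therefore much alike in 5 libraries and held more Cdh16 and Cdh1 in the remaining library, where the share of Cdh3 was the lowest of all (3.38%).

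No cadherin of the 8 passed the test between the populations. At an adjusted p under 0.05 (edgeR quasi-likelihood test, Benjamini-Hochberg over all genes) 0 of 8 members were called, and the background was 0% of 15462 genes (1650 genes, 10.7%, at an unadjusted p under 0.05). The DESeq2 test called 0 of 8, with a background of 1.69% (0.0970% higher and 1.60% lower in tdT+GFP+ cells). A DESeq2 fit blocked on kidney called 0 of 8 as well, with a background of 1.86% (0.269% higher and 1.59% lower). Log2 fold changes below are tdT+GFP+ over tdT-GFP+, so negative values are lower in red cells. Of the 8, 6 were negative and 2 positive, with a median of -0.54. Over all tested genes the median was -0.000385 and 50.1% were negative. At an unadjusted p under 0.05 in edgeR by group alone there was 1 member, Cdh4, with a negative value. Beside it were 6.97% of all genes with a negative and 3.71% with a positive value. Blocked on kidney, edgeR gave an unadjusted p of 0.0296 for Cdh1, 0.00522 for Cdh4 and 0.0269 for Cdh16, all negative. The other members were above 0.05, and of 15462 genes 911 with a negative and 374 with a positive value were below it.

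**Figure D2:**
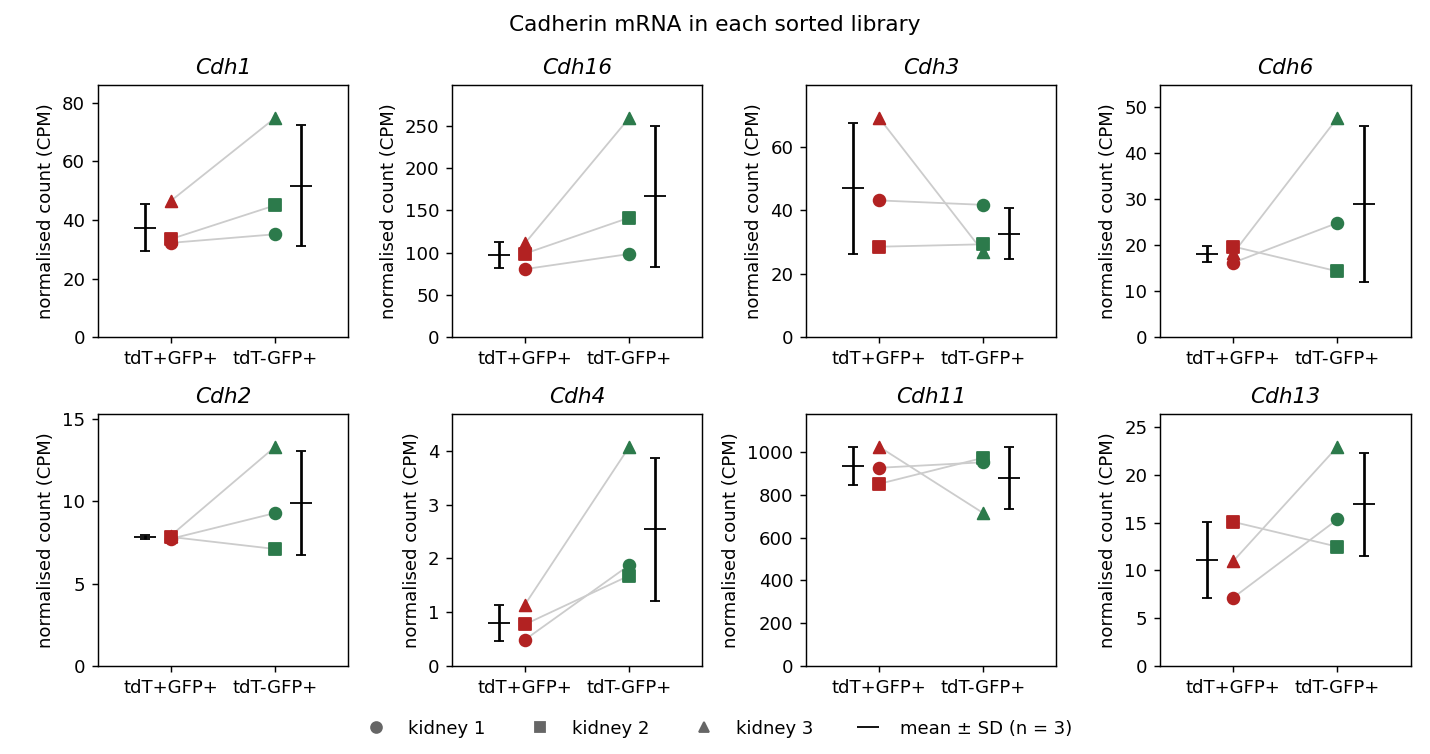
Normalised count (CPM, linear axes from 0) of each cadherin in each library. Lines join the libraries of a kidney, and black bars are mean ± SD (n = 3). Cdh4 is the gene whose groups do not overlap, and the tdT-GFP+ library of kidney 3 is the highest for Cdh1, Cdh2, Cdh4, Cdh6, Cdh13 and Cdh16 and the lowest for Cdh3 and Cdh11.

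Cdh1 (ENSMUSG00000000303.12, GRCm38, chromosome 8, 106603351 to 106670246, plus strand, protein coding) encodes E-cadherin, which seals the epithelium of tubules. It had 32.2, 33.5 and 46.5 CPM in tdT+GFP+ libraries 1, 2 and 3 and 35.1, 45.0 and 74.9 CPM in tdT-GFP+ libraries 1, 2 and 3. The red cells were lower within each kidney, but the groups overlapped because library 3 of tdT+GFP+ cells exceeded libraries 1 and 2 of tdT-GFP+ cells. On the log2 scale the difference was -0.47 (95% interval -1.18 to 0.24, SE 0.30, adjusted p = 0.551). Without library 3 of tdT-GFP+ cells it was -0.10, and without both libraries of kidney 3 it was -0.29.

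Cdh16 (ENSMUSG00000031881.6, chromosome 8, 104601911 to 104624396, minus strand, protein coding) encodes kidney-specific cadherin, an atypical member with a short tail that marks the basolateral side of tubule cells. It had 80.4, 98.7 and 110.9 CPM in tdT+GFP+ libraries 1, 2 and 3 and 98.3, 141 and 259 CPM in tdT-GFP+ libraries 1, 2 and 3. Again each kidney had less in the red cells, while library 1 of tdT-GFP+ cells lay within the range of the tdT+GFP+ libraries. The log2 difference was -0.78 (95% interval -1.62 to 0.05, SE 0.35, adjusted p = 0.475). DESeq2 gave Cdh16 an adjusted p of 0.290, or 0.0986 when blocked on kidney. The difference was -0.31 without library 3 of tdT-GFP+ cells and -0.42 with kidney 3 left out.

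The ratio of Cdh16 to Cdh1 in CPM stayed within narrow bounds across libraries, from 2.39 to 2.95 in tdT+GFP+ and from 2.80 to 3.46 in tdT-GFP+ cells. Their log2 CPM correlated by 0.963 over the 6 libraries and by 0.833 without library 3 of tdT-GFP+ cells (n = 5), given as a description, since libraries of a kidney share their source. Against Epcam the ratios were much wider. Cdh16 over Epcam ran from 2.58 to 9.18 and Cdh1 over Epcam from 1.01 to 3.11, and the groups overlapped in both.

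Cdh3 (ENSMUSG00000061048.8, chromosome 8, 106510891 to 106557297, plus strand, protein coding) encodes P-cadherin, a classical cadherin of basal epithelium and placenta. It had 43.1, 28.5 and 69.2 CPM in tdT+GFP+ libraries 1, 2 and 3 and 41.7, 29.3 and 26.8 CPM in tdT-GFP+ libraries 1, 2 and 3. Kidneys 1 and 2 had nearly equal values in both populations, and the difference lay in kidney 3, at 1.37 on the log2 scale. On the log2 scale the difference was 0.52 (95% interval -0.28 to 1.33, SE 0.33, adjusted p = 0.554). It was 0.01 without both libraries of kidney 3 and 0.14 without library 3 of tdT+GFP+ cells. Without library 3 of tdT-GFP+ cells it was 0.40.

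Cdh3 and Cdh1 are neighbours on the same strand, with 46053 bases between them, and 5 of the 8 members lie on chromosome 8. The neighbours did not share a pattern. Their log2 CPM correlated by -0.249 over 6 libraries and by 0.342 without library 3 of tdT-GFP+ cells. That library held the highest Cdh1 and the lowest Cdh3 of all.

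Cdh2 (ENSMUSG00000024304.14, chromosome 18, 16588877 to 16809246, minus strand, protein coding) had 7.72, 7.83 and 7.91 CPM in tdT+GFP+ libraries 1, 2 and 3. In tdT-GFP+ libraries 1, 2 and 3 it had 9.28, 7.10 and 13.3 CPM, so that the groups overlapped. The red cells were nearly constant, and the scatter was in the tdT-GFP+ libraries. The log2 difference was -0.34 (95% interval -0.88 to 0.21, SE 0.23, adjusted p = 0.567), and it was -0.07 without library 3 of tdT-GFP+ cells and -0.08 with kidney 3 left out. The interval reaches up to a gain of 0.21 in the red cells.

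Cdh4 (ENSMUSG00000000305.12, chromosome 2, 179442431 to 179899373, plus strand, protein coding) encodes R-cadherin, a close relative of N-cadherin first known from retina and also made in developing kidney. It had 0.488, 0.773 and 1.14 CPM (16, 24 and 30 counts) in tdT+GFP+ libraries 1, 2 and 3. In tdT-GFP+ libraries 1, 2 and 3 it had 1.88, 1.68 and 4.08 CPM (57, 45 and 110 counts). Every tdT-GFP+ library was above every tdT+GFP+ library. It was the only member of the 8 whose groups did not overlap. Of all tested genes 15.8% had groups with no overlap (8.60% with lower and 7.24% with higher values in the red cells). The mean was 3.18 times higher in tdT-GFP+ cells. On the log2 scale the difference was -1.68 (95% interval -2.83 to -0.53, SE 0.48, unadjusted p = 0.0110, adjusted p = 0.414), so it was not past the threshold over all genes. DESeq2 gave an adjusted p of 0.0823, or 0.105 when blocked on kidney. The differences were -1.80, -1.06 and -1.78 in kidneys 1, 2 and 3, and the value was -1.16 without library 3 of tdT-GFP+ cells and -1.5 with kidney 3 left out.

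Cdh6 (ENSMUSG00000039385.5, chromosome 15, 13028701 to 13173675, minus strand, protein coding), whose upstream window is printed above, encodes K-cadherin, a type II cadherin of the developing nephron and of proximal tubule. It had 16.1, 19.6 and 18.1 CPM in tdT+GFP+ libraries 1, 2 and 3 and 24.8, 14.3 and 47.6 CPM in tdT-GFP+ libraries 1, 2 and 3. The red cells lay close together, and tdT-GFP+ cells held both the lowest and the highest library. The differences were -0.62, 0.46 and -1.39 in kidneys 1, 2 and 3, so the kidneys did not share a direction. The 95% interval of the log2 fold change ran from -1.66 to 0.29 around -0.68 (SE 0.40, adjusted p = 0.533), and the value was -0.12 without library 3 of tdT-GFP+ cells and -0.13 with kidney 3 left out.

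Cdh2 and Cdh6 varied together across libraries. Their log2 CPM correlated by 0.991 over 6 libraries and by 0.956 without library 3 of tdT-GFP+ cells. This pair did not follow Cdh1 and Cdh16 once that library was left out: Cdh6 correlated with Cdh1 by 0.707 over 6 and by -0.386 over the other 5 libraries, and with Cdh16 by 0.736 and -0.378. Of the 28 pairs of members, the pairs Cdh2 with Cdh6 and Cdh1 with Cdh16 had the highest values with all libraries and also without that library.

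Cdh11 (ENSMUSG00000031673.6, chromosome 8, 102632095 to 102785642, minus strand, protein coding) encodes a type II cadherin of fibroblasts and bone-forming cells. It had 926, 851 and 1024 CPM in tdT+GFP+ libraries 1, 2 and 3 and 952, 973 and 714 CPM in tdT-GFP+ libraries 1, 2 and 3. The groups overlapped, and kidneys 1 and 2 had slightly less and kidney 3 more in the red cells. The log2 difference was 0.09 (95% interval -0.27 to 0.44, SE 0.15, adjusted p = 0.825), the narrowest interval of the 8. The sign turned without library 3 of tdT-GFP+ cells (-0.04) and when kidney 3 was left out (-0.12).

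Cdh13 (ENSMUSG00000031841.19, chromosome 8, 118283733 to 119324921, plus strand, protein coding) encodes T-cadherin, which has no tail, is held in the membrane by a lipid anchor and is known from vessels. It had 7.14, 15.1 and 10.95 CPM in tdT+GFP+ libraries 1, 2 and 3 and 15.3, 12.5 and 22.9 CPM in tdT-GFP+ libraries 1, 2 and 3. Kidneys 1 and 3 had less in the red cells, kidney 2 had more, and the groups overlapped. On the log2 scale the difference was -0.61 (95% interval -1.40 to 0.17, SE 0.33, adjusted p = 0.507), and it was -0.33 without library 3 of tdT-GFP+ cells or without both libraries of kidney 3. It was -1.09 without both libraries of kidney 2.

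**Figure D3:**
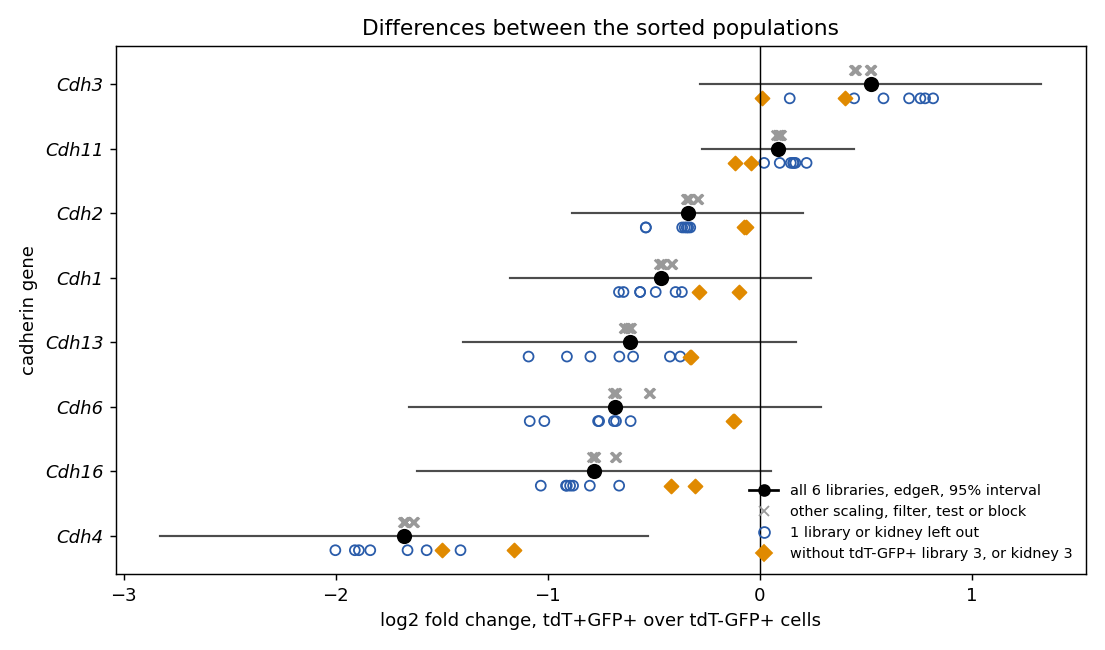
Log2 fold change of each cadherin, with its 95% interval over all 6 libraries (black) and its values under the other settings. Orange diamonds are the fits without tdT-GFP+ library 3 or without kidney 3. They lie closer to 0 than the full fit for Cdh1, Cdh2, Cdh3, Cdh4, Cdh6, Cdh13 and Cdh16, and below 0 for Cdh11.

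Within kidneys, the red cells had the lower value of Cdh1, Cdh4 and Cdh16 in all 3, which 17.1% of tested genes shared. No member had higher values in all 3, as 15.4% of tested genes had. Library 3 of tdT-GFP+ cells stood at 3.57 times the median of the other 5 libraries for Cdh4, 2.63 times for Cdh16, 2.62 times for Cdh6 and 2.13 times for Cdh1. It was at 0.642 times that median for Cdh3 and 0.7501 times for Cdh11.

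Among the other cadherins the endothelial gene Cdh5 had the most counts, on the CPM scale and not per length. Cdh5 encodes VE-cadherin of the junctions between endothelial cells, and it had 84.8, 157 and 128 CPM in tdT+GFP+ and 297, 232 and 374 CPM in tdT-GFP+ libraries 1, 2 and 3. All red libraries lay below all others, at -1.29 on the log2 scale (SE 0.27, edgeR adjusted p = 0.394, DESeq2 adjusted p = 0.000376). Of 20 further cadherin and cadherin-related genes 7 were tested and all 7 were negative (median -0.36). Cdh7, Cdh8 and Cdh20 had a count of 0 in every library. Cdh13 over Cdh5 was 0.0841 to 0.0962 in tdT+GFP+ and 0.0516 to 0.0612 in tdT-GFP+ cells, ranges that did not overlap. Cdh13 thus had the smaller difference of this pair, a relation that was looked at after the values were known and was not tested.

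The larger cadherin-like proteins held 4 members that DESeq2 called lower, while it called 1.60% of all genes lower. Of 20 tested genes for protocadherins, Fat, Dachsous and Celsr proteins, 11 were negative and 9 positive (median -0.06), and edgeR called 0. Celsr1, a planar polarity cadherin, had 12.4 ± 1.07 against 24.3 ± 7.56 CPM (-0.97 on the log2 scale, SE 0.22, edgeR adjusted p = 0.394), and DESeq2 called it (adjusted p = 0.00946). Pcdh1 had 92.6 ± 10.4 against 133.6 ± 20.4 CPM (-0.53, SE 0.14). Dchs1, the partner of Fat4, had 202 ± 7.74 against 248 ± 11.3 CPM (-0.30, SE 0.08), and DESeq2 called both (adjusted p = 0.0450 and 0.0180). The fourth DESeq2 call was Pcdh17, with 13.3 against 31.6 CPM (-1.25, adjusted p = 0.0142). Blocked on kidney, DESeq2 called Celsr1 (adjusted p = 0.00863) and Pcdh1 (0.0462) but neither Dchs1 (0.475) nor Pcdh17 (0.0570), and Pcdh17 had -0.82 with kidney 3 left out. Among desmosome genes, which join epithelial cells to keratin, 7 of 8 tested were negative (median -0.63). Evpl had -1.003 (SE 0.34), Dsg2 -0.79 (SE 0.36) and Dsp -0.69 (SE 0.34), and none passed in edgeR (adjusted p from 0.438 to 0.496), while the blocked DESeq2 fit called Dsp (adjusted p = 0.0301). Without library 3 of tdT-GFP+ cells Dsg2 had -0.33 and Dsp -0.42, and Dsp had -1.09 without library 3 of tdT+GFP+ cells.

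The catenins that couple cadherins to actin were abundant, and none passed the test. Beta-catenin (Ctnnb1) had 509, 528 and 545 CPM in tdT+GFP+ and 606, 548 and 594 CPM in tdT-GFP+ libraries 1, 2 and 3. These groups did not overlap, but by a narrow margin, and the difference was -0.14 (SE 0.09, adjusted p = 0.538). Alpha-catenin (Ctnna1) had -0.02 (SE 0.10) and p120-catenin (Ctnnd1) had 0.12 (SE 0.11). Plakoglobin (Jup), which joins classical as well as desmosomal cadherins, had 262 ± 29.3 against 354 ± 49.4 CPM (-0.43, SE 0.14, adjusted p = 0.430), also with no overlap. Of 20 tested catenin and adaptor genes 13 were negative (median -0.11) and 0 passed. Of 15 tested genes for cadherin processing and turnover 10 were positive (median 0.08). They included Furin, the protease that matures cadherins, at 0.18 (SE 0.10), and the shedding protease gene Adam9 at 0.40 (SE 0.14), neither past the threshold.

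None of the transcription factors known to repress Cdh1 passed the test. Zeb2 had the most counts of the list (CPM, not per length), at 464 ± 7.86 against 438 ± 51.2 CPM (0.08 on the log2 scale, SE 0.11). Zeb1 had -0.24 (SE 0.11), Snai1 -0.28 (SE 0.21), Snai2 0.08 (SE 0.16), Twist1 -0.11 (SE 0.27) and Twist2 0.31 (SE 0.24). Of 11 tested genes of this list 5 were positive and 6 negative, the median was -0.003, and 0 had an unadjusted p under 0.05. The signs of Snai2, Zeb2 and Twist1, and that of Ctnna1 above, turned in some fits with libraries left out.

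Epithelial regulators and markers had mostly negative values, as Cdh1 and Cdh16 had. Of 14 tested epithelial transcription factor and splicing genes 13 were negative (median -0.52). The tubule factor Pax8 had 20.9 ± 5.35 against 35.5 ± 17.3 CPM (-0.76, SE 0.36), and Elf3 had -1.29 (SE 0.54). All 20 pan-epithelial genes were negative (median -0.55), with summed levels of 268 to 636.5 CPM in tdT+GFP+ and 392.0 to 714 CPM in tdT-GFP+ libraries, and none was at 0. Krt8 had -0.91 (SE 0.41) and Epcam -0.59 (SE 0.54). None of these genes passed in edgeR, while the blocked DESeq2 fit called Elf3 (adjusted p = 0.0301) and Krt8 (0.000166). Leaving out library 3 of tdT-GFP+ cells gave -0.30 for Pax8 and -0.57 for Krt8, and leaving out library 3 of tdT+GFP+ cells gave -1.40 for Krt8 and -1.97 for Elf3. Elf3 had -0.83 with kidney 2 left out. Epcam ran from -1.36 to -0.05 over the fits with libraries or kidneys left out.

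Tubule genes were then counted by nephron segment. Of 16 tested genes of loop, distal tubule and collecting duct 15 were negative (median -0.75), with summed levels of 166 to 636 CPM in tdT+GFP+ and 510 to 1092 CPM in tdT-GFP+ libraries. Umod, the uromodulin gene of the thick ascending limb, had 218 ± 203 against 576 ± 204 CPM (-1.40, SE 0.66), and Slc12a3, the transporter of the distal tubule, had 13.5 ± 1.24 against 35.1 ± 22.4 CPM (-1.38, SE 0.42). Of 18 proximal tubule genes 11 were negative and 7 positive (median -0.10), with 662.5 to 869.5 against 495 to 1427 CPM. Kap, a proximal tubule gene, had -2.04 (SE 0.63). Of 10 genes of injured tubule 9 were negative (median -0.82), with 3079 to 4093 against 3637 to 6858 CPM, and Sox9 had -0.91 (SE 0.30). Without library 3 of tdT-GFP+ cells Slc12a3 had -0.72, Kap -1.14 and Sox9 -0.48, and with kidney 3 left out they had -0.70, -1.27 and -0.58. Umod had -2.49 without library 3 of tdT+GFP+ cells and -2.26 with kidney 3 left out. It had -1.16 without library 3 of tdT-GFP+ cells and -0.96 with kidney 2 left out. None of these genes passed in edgeR, and DESeq2 called 1 of them, Slc12a3 (adjusted p = 0.0367). Blocked on kidney, DESeq2 called 6 genes of loop, distal tubule and collecting duct lower, 1 of proximal tubule and 2 of injured tubule. Among them by adjusted p were Slc12a3 (0.0462), Umod (0.000387) and Kap (8.67e-06), and not Sox9 (0.0555). The share of all genes called lower was 1.60% in DESeq2 and 1.59% when blocked on kidney. No gene of these lists was at 0 in all libraries. Their part in the values of Cdh1, Cdh6 and Cdh16 was not tested.

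Endothelial genes had the lowest median of the lists. All 16 endothelial genes were negative (median -1.27), summed at 1485 to 2119 CPM in tdT+GFP+ and 2416 to 3973 CPM in tdT-GFP+ libraries, and all 11 mural genes were negative (median -0.84), summed at 830 to 1181 and 1223 to 2425 CPM. Pecam1 had -1.31 (SE 0.39), Tie1 -1.57 (SE 0.25) and the pericyte gene Rgs5 -1.26 (SE 0.32), and the edgeR adjusted p was 0.388 to 0.418. Pecam1 had -1.97 with kidney 2 left out, -0.90 with kidney 3 left out and -1.01 without library 3 of tdT-GFP+ cells. DESeq2 called Pecam1 (adjusted p = 0.0250), but not when blocked on kidney (adjusted p = 0.533). DESeq2 called 10 endothelial and 2 mural genes lower, and 8 and 1 when blocked on kidney. Of all genes it called 1.60% lower, and 1.59% when blocked on kidney. None of the genes of either list was at 0. Their part in the values of Cdh4 and Cdh13 was not tested. Of 16 fibroblast genes 8 were positive and 8 negative (median -0.009). All 10 macrophage genes were positive (median 0.62), summed at 455 to 1667 CPM in tdT+GFP+ and 333 to 995 CPM in tdT-GFP+ libraries. The kidneys did not share a direction. The macrophage sum was higher in the red cells of kidneys 1 and 2 and lower in those of kidney 3 (455 against 995 CPM).

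**Figure D4:**
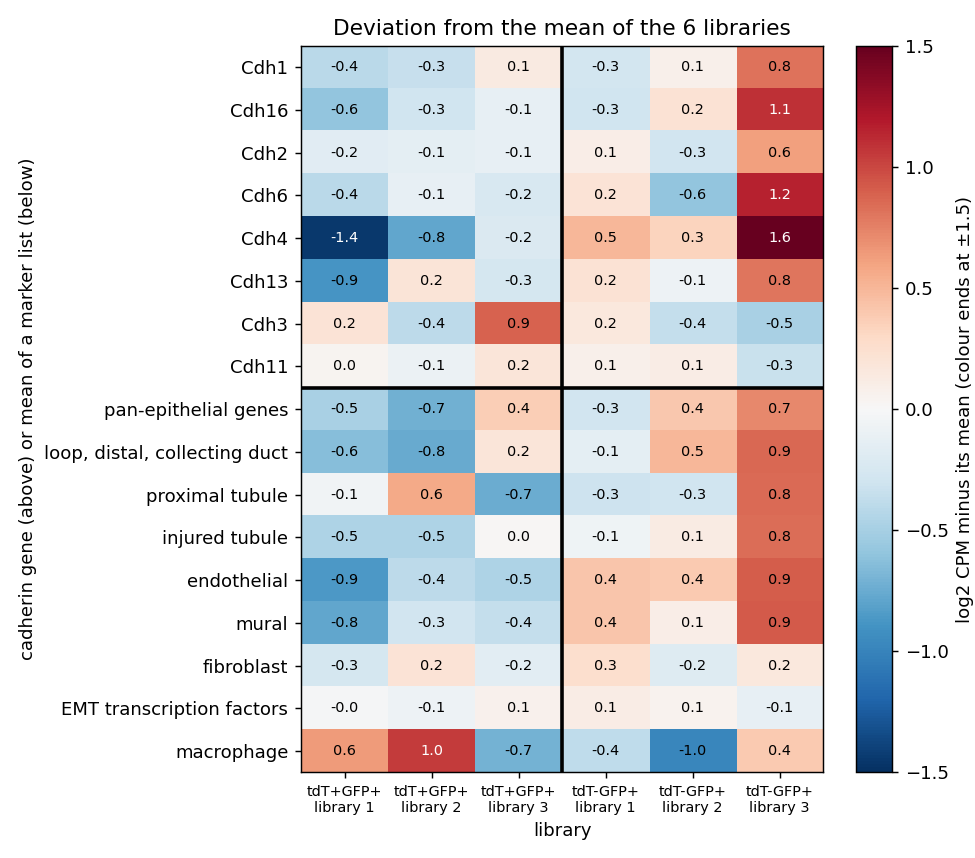
Deviation of log2 CPM from the mean of the 6 libraries, for each cadherin (above the line) and for the mean of each marker list (below). Red is above and blue below the mean. The last column, tdT-GFP+ library 3, is red for Cdh1, Cdh16, Cdh2, Cdh6, Cdh4 and Cdh13 and for the epithelial, tubule, endothelial and mural lists. It is also red, less strongly, for the fibroblast and macrophage lists, and blue for Cdh3, Cdh11 and the transcription factor list.

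The cadherins differed in which of the searched genes followed them. Likeness was the Pearson correlation of log2 CPM over the 6 libraries, searched over 11117 tested genes whose mean reached 5 CPM, and the 3 highest are named for each member. Over 6 points such a search finds very high values for any gene, so they are a description. For Cdh1 they were Slc44a3, Atp6v1f and Zbtb8os (0.992 to 0.998), and for Cdh16 they were Bspry, Galnt14 and Gprc5c (0.995 to 0.999). Those of Cdh2 were Cdh6, Mtor and Rad21 (0.986 to 0.991), and those of Cdh6 were Klf6, Cdh2 and Lmod1 (0.984 to 0.995). The value of Cdh2 with Cdh6 is the correlation already given for this pair and not a second result. Cdh3 was followed by Zfp507, Rab8a and Dhrs3 (0.983 to 0.992) and Cdh4 by Klf10, Nrip2 and Map9 (0.997 to 0.998). For Cdh11 they were Morf4l1, the syndecan gene Sdc2 and Rnf165 (0.994 to 0.998), and for Cdh13 they were Plac9b, Tubb2b and Mfap4 (0.975 to 0.984). Without library 3 of tdT-GFP+ cells these correlations were 0.956 to 0.999.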

How the data were processed

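Poly(A) RNA of sorted cells was made into strand-specific libraries, per the labels' protocols. The authors deposited estimated counts for each gene, and the column names are those of RSEM gene results, per the file headers. The values were already whole, and rounding changed 0 of them. The submitters' processing notes list STAR 2.6.1, RSEM 1.2.28 and DESeq2 1.26.0, with the builds mm10 and GRCh38 and no role. How counting used strand and which annotation release it used are not given in the sources used here. Spike-in rows (92, with a sum of 0) were left out.

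Genes were filtered by filterByExpr. Library sizes were scaled by TMM, and edgeR 4.0.16 in R 4.3.3 gave the test (glmQLFit, robust, and glmQLFTest, group alone, Benjamini-Hochberg adjustment over all tested genes). Lengths and coordinates came from GENCODE M21 (GRCm38), with 31748 genes matched. The fit was tested on simulated data with no difference between kidneys. It recovered 66.8% of genes with an absolute log2 change of 1 and 95.5% of those with a change of 2. The simulated counts were drawn independently for each library, at the fitted trend of spread over genes and with no difference in cell makeup. These shares therefore do not give the share that would be found in the real libraries. There edgeR called 0 of 15462 genes, and the smallest adjusted p was 0.388. Same-numbered libraries carry the same kidney number in the labels, which is where the pairing comes from. Their deviations from the group means correlated by 0.0385, -0.578 and -0.304 for kidneys 1, 2 and 3, so the values themselves do not show it.

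Members and the 20 companion lists (264 genes) were chosen with earlier results of these data known. Named genes were the members, fixed companions, per list up to 4 with the smallest p and 2 with the highest mean, and the 3 most alike per member. Not every gene that the rule names is reported here. Alternatives were DESeq2 size factors, upper-quartile factors, other filters, DESeq2 1.42.0 on the same genes, limma-voom 3.58.1, the kidney as a block, libraries or kidneys left out, and another gene length.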

Additional observations from a re-analysis of the deposited data

How the results depend on the processing

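Each cadherin was fitted under 17 alternatives, and 0 of 8 passed the threshold in any. The lowest adjusted p was 0.0823, for Cdh4 in DESeq2. With libraries or kidneys left out, log2 fold changes ran from -0.66 to -0.10 for Cdh1, -0.54 to -0.07 for Cdh2, 0.01 to 0.82 for Cdh3, -2.0 to -1.16 for Cdh4, -1.09 to -0.12 for Cdh6, -0.12 to 0.22 for Cdh11, -1.09 to -0.33 for Cdh13 and -1.03 to -0.31 for Cdh16. Cdh11 turned sign without tdT-GFP+ library 3 (-0.04) and without kidney 3 (-0.12). Signs also turned within the ranges of Ctnna1 (-0.0980 to 0.0475), Snai2 (-0.0524 to 0.332), Zeb2 (-0.00125 to 0.173), Twist1 (-0.543 to 0.230) and Axin2 (-0.379 to 0.725). The cause was not tested.

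Over all genes edgeR called 0, and DESeq2 called 15 higher and 247 lower. A replicate block on kidney gave 40 higher and 236 lower in DESeq2 and 0 in edgeR. The block gave Cdh4 -1.63 and Cdh16 -0.68 in edgeR and changed no call on a cadherin member. With the longest transcript as length, the mean level was 5.21 TPM for Cdh2, 454.2 TPM for Cdh11 and 8.73 TPM for Cdh13, and the mean share was 4.26% for Cdh1 and 1.31% for Cdh13.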

Other observations

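The mRNA of Axin2, the gene from which the Cre that turns on the red label is made, did not separate the populations on the day of the sort. It had 52.7, 29.7 and 64.2 CPM in tdT+GFP+ libraries 1, 2 and 3 and 43.0, 64.2 and 27.3 CPM in tdT-GFP+ libraries 1, 2 and 3, so the groups overlapped. Acta2 had 1579 ± 165 against 1158 ± 372 CPM (SD, n = 3), also with overlap. Across the 6 libraries the log2 CPM of Cdh11 correlated with that of Axin2 by 0.887, and by 0.898 without tdT-GFP+ library 3. For Cdh6 these values were -0.761 and -0.569. They describe 6 libraries that share 3 kidneys and were picked from the 8 members after the values were seen.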
